A study of Rattus norvegicus with 6 samples.

Results

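The transcripts of 9 genes of the transforming growth factor beta (TGFβ) pathway were examined in cultured newborn rat ovaries. They encode the 3 ligands TGFβ-1, TGFβ-2 and TGFβ-3 (Tgfb1, Tgfb2, Tgfb3), the receptors Tgfbr1 and Tgfbr3, and the intracellular proteins Smad2, Smad3, Smad4 and Smad7. A gene was taken in when a probe set of the array carried its symbol and no other, which gave 1 probe set for each of the 9 genes among 27342 in all. Tgfbr2, the type II receptor, had no probe set named by a single symbol and was not analysed here.

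RNA came from 6 pools of whole ovaries of Sprague-Dawley females, removed at 0 days of age and kept in organ culture for 24 h. Of these, 3 pools had received human connective tissue growth factor (CTGF) at 500 ng/ml and 3 control pools had no treatment. A pool held 2 to 3 ovaries of different pups from 1 litter that had shared a well, and each of 3 organ culture date batches gave 1 CTGF pool and 1 control pool. The replicate number and the batch number were the same in every sample. A whole ovary contains oocytes, pregranulosa cells, stroma, vessels and leukocytes, so fewer cells of a type and less RNA per cell cannot be told apart.

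The TGFβ ligands are secreted in a latent form that is held in the extracellular matrix and has to be activated. An active ligand joins a type II and a type I receptor serine/threonine kinase, and the type I receptor phosphorylates Smad2 and Smad3, which enter the nucleus with Smad4 and act on transcription. Smad7 is an inhibitor that the pathway itself induces, and CTGF is among the known targets of the pathway in connective tissue. The study asked whether CTGF has a role in the assembly of primordial follicles. The arrays allow the question of whether CTGF altered transcripts of the TGFβ pathway within the 24 h of culture.

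The stretches of DNA before the transcription start of the 3 ligand genes are shown because the ligands signal through one receptor complex while each is read here from a gene and promoter of its own. They are the 250 bases before the start in RefSeq on the GRCr8 assembly, at chr1:90324062-90324311 on the plus strand for Tgfb1, at chr13:100792686-100792935 on the minus strand for Tgfb2 and at chr6:111456947-111457196 on the minus strand for Tgfb3. Capitals mark AGAC or its reverse complement GTCT, the core letters that Smad3 and Smad4 recognise.
Tgfb1: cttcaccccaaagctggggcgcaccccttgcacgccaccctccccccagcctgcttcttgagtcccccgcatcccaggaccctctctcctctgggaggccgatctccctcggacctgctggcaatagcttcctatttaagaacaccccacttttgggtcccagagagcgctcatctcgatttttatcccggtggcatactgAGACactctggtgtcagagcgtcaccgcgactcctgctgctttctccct
Tgfb2: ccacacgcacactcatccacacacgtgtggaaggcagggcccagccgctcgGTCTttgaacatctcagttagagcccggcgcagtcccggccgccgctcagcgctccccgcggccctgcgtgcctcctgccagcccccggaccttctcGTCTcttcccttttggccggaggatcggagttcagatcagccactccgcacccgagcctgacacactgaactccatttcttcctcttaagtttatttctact
Tgfb3: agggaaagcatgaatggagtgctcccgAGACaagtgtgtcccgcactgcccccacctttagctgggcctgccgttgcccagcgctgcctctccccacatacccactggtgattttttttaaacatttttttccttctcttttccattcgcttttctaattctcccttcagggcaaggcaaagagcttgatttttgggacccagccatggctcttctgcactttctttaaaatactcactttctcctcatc
The core was found once in the Tgfb1 and Tgfb3 stretches and 2 times in that of Tgfb2, and the median of all 33469 promoter entries was 2. It occurred on either strand in 7 of the 9 genes and in 84% of all entries, so these letters are common. The longer CAGAC, the CAGA box of Smad targets, was in 42.9% of all entries and in 0 of the 9. The GC box GGGCGG was in 30.5% of all entries and in Tgfbr1, Tgfbr3, Smad2, Smad3 and Smad7, but in none of the 3 ligand stretches. The TATA box TATAAA was in 12.9% of all entries and, of the 9, in Smad4. The AP-1 site TGACTCA (4.05% of all entries), the CRE TGACGTCA (1.59%) and the TEAD site GGAATG (12.1%) were in 0 of the 9. The G and C content was 48.8% for Tgfb3, 60% for Tgfb1, 61.6% for Tgfb2 and 30.8% for Smad4, against 68.4% to 79.6% in the other 5 genes and a median of 51.2% over all entries. Both strands were searched, AGAC lies within CAGAC, and a match of letters is a description and not a binding site.

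The deposited value of a probe set is a log2 signal, and array medians lay between 5.82 and 5.84. In these values the mean of the CTGF and the control array was the same in the 3 batches for every probe set to within 0.005, so the batches no longer differ in level and the spread within a group comes from the 3 CTGF minus control differences alone. For the same reason the CTGF and control arrays of a gene fail to overlap exactly where the 3 differences have one sign. A level for background was set from 39 measured genes that other organs use, among them crystallins of the lens and hormones of the pituitary, whose median signal was 23.2 and whose 95th percentile was 55.2 on the un-logged scale. Of the 39 genes, 2 lay above this percentile, Hbb-b1 and Cyp2e1, with mean signals of 675.6 and 147.5 in CTGF ovaries. Of all probe sets 50.6% lay above this percentile, as did the probe sets of 8 of the 9 genes, Smad7 being the exception. All 12 measured oocyte markers lay above it, among them the germ cell genes Ddx4 and Dazl, as did all 9 pregranulosa markers and all 7 stroma markers. Signals of different probe sets are not compared with each other, since probes differ in their response.

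Tgfb3 was the only one of the 9 genes with a higher signal in CTGF ovaries in all 3 culture batches. Its log2 signal was 8.20, 8.20 and 8.17 in CTGF ovaries of batches 1, 2 and 3, against 8.08, 8.08 and 8.10 in control ovaries. All 3 CTGF arrays thus lay above all 3 control arrays. Its un-logged signal averaged 292.0 ± 3.49 in CTGF ovaries and 271.9 ± 2.18 in control ovaries (SD, n = 3 each), a ratio of 1.07. The log2 difference was 0.10 with a standard error of 0.063, and its 95% interval ran from -0.05 to 0.26. Limma did not call it after Benjamini-Hochberg adjustment across the array (adjusted p = 0.994). The methods' 2-way test, which uses the gene's own spread alone, called it only before adjustment (adjusted p = 1). Of all probe sets 9.41% were higher in all 3 batches and 10.9% were lower in all 3, or 20.3% together. Above the background level these shares were 9.44% higher and 9.6% lower. The 1 of 9 genes that was higher is thus near the background share.

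Tgfb2 had an equal signal in both groups in batches 1 and 3, to within 0.01, and a higher one with CTGF in batch 2. Its log2 signal was 8.45, 8.54 and 8.44 in CTGF ovaries, against 8.45, 8.36 and 8.45 in control ovaries. The groups overlapped, and the highest and the lowest of the 6 values were the pair of batch 2. The mean difference was 0.06 (standard error 0.071, 95% interval -0.12 to 0.23) and became -0.005 without replicate 2.

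Tgfb1, the ligand that the study also added to cultures as a protein, had a log2 signal of 6.08, 6.21 and 6.13 in CTGF ovaries, against 6.24, 6.11 and 6.19 in control ovaries. It was lower with CTGF in batches 1 and 3 and higher in batch 2, with overlapping groups. The difference averaged -0.04 (standard error 0.076, 95% interval -0.22 to 0.14) and became 0.02 without replicate 1. The signal of this probe set, 70.6 ± 3.22 in CTGF ovaries and 72.6 ± 3.28 in control ovaries (SD, n = 3 each), was near the background level, at 1.29 times it on average.

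The receptors showed small differences of both signs. Tgfbr1, the type I receptor kinase also known as ALK5, had a log2 signal of 9.02, 8.99 and 8.95 in CTGF ovaries, against 8.94, 8.97 and 9.01 in control ovaries. It was higher with CTGF in batches 1 and 2 and lower in batch 3, and the mean difference was 0.01 (standard error 0.066, 95% interval -0.15 to 0.17). Without replicate 1 it was -0.02. Tgfbr3, or betaglycan, a co-receptor that presents TGFβ-2 and also binds inhibin, had 8.15, 8.20 and 8.17 in CTGF ovaries, against 8.23, 8.18 and 8.21 in control ovaries. It was lower with CTGF in batches 1 and 3, and its mean difference was -0.03 (standard error 0.064, 95% interval -0.19 to 0.12), or -0.01 without replicate 1. Values of the 2 groups overlapped for both receptors.

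**Figure D1:**
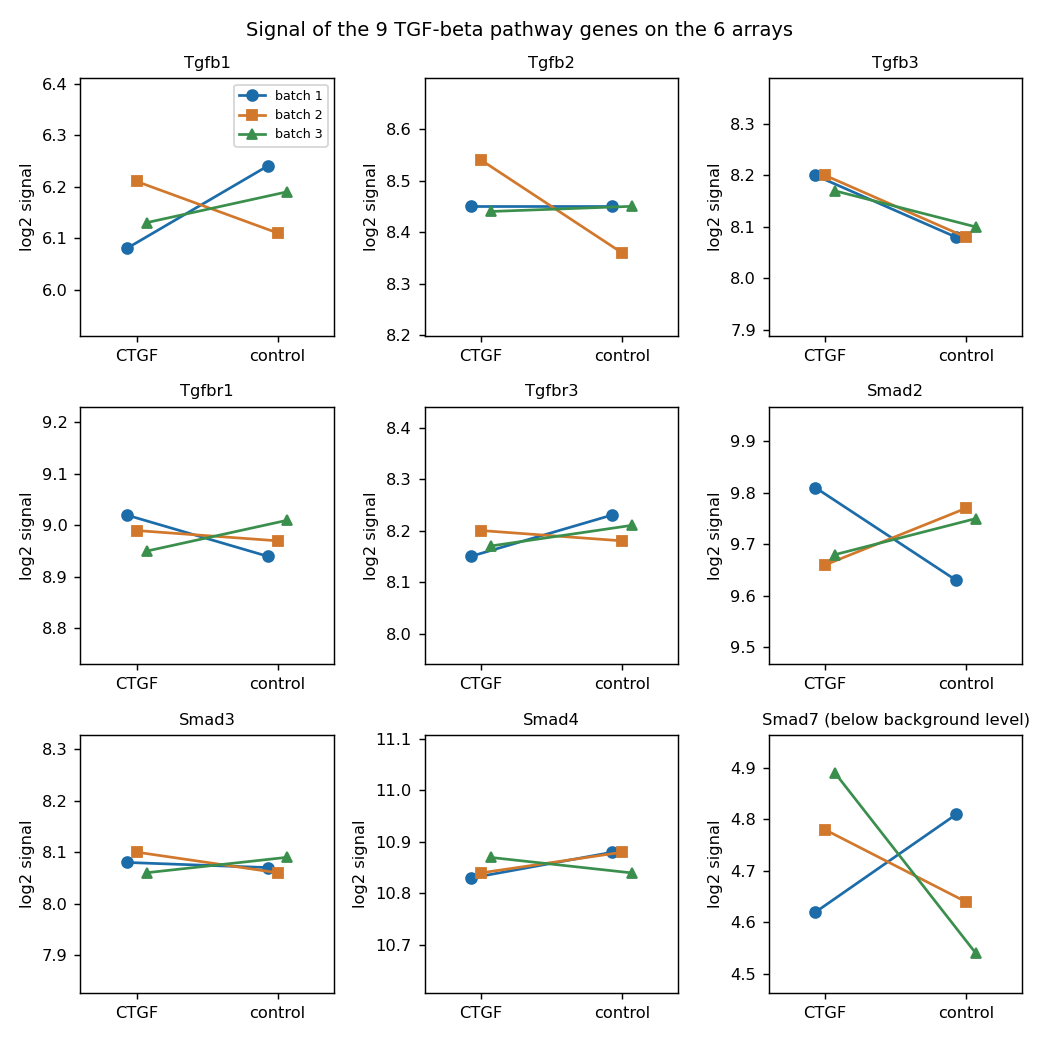
Log2 signal (vertical axis, each panel spanning the same range of 0.5) of each gene in CTGF and control ovaries (horizontal axis), with a line joining the 2 arrays of culture batch 1 (circles), 2 (squares) or 3 (triangles). The CTGF points lie above all control points for Tgfb3 alone, and the lines of Smad7, below the background level, cross widely.

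Smad2 and Smad3 are the receptor-activated Smads of the TGFβ branch. Smad2 had a log2 signal of 9.81, 9.66 and 9.68 in CTGF ovaries, against 9.63, 9.77 and 9.75 in control ovaries. The differences of 0.18, -0.11 and -0.07 cancelled, and their mean was 0 (standard error 0.081, 95% interval -0.20 to 0.20). Smad3 had 8.08, 8.10 and 8.06 in CTGF ovaries, against 8.07, 8.06 and 8.09 in control ovaries. All 6 values of Smad3 lay within 0.04 of each other, and the mean difference was 0.01 (standard error 0.063, 95% interval -0.15 to 0.16), or -0.01 without replicate 2. Smad4, the common partner of the receptor-activated Smads, had 10.83, 10.84 and 10.87 in CTGF ovaries, against 10.88, 10.88 and 10.84 in control ovaries. It was lower with CTGF in batches 1 and 2 and higher in batch 3, with a mean difference of -0.02 (standard error 0.064, 95% interval -0.17 to 0.13), or -0.045 without replicate 3.

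Smad7, the inhibitory Smad, had the widest spread of the 9 genes. Its log2 signal was 4.62, 4.78 and 4.89 in CTGF ovaries, against 4.81, 4.64 and 4.54 in control ovaries. The difference was -0.19, 0.14 and 0.35 in the 3 batches, with a mean of 0.10 (standard error 0.109, 95% interval -0.16 to 0.36), and -0.025 without replicate 3. The un-logged signal was 27.2 ± 2.54 in CTGF ovaries and 25.4 ± 2.43 in control ovaries (SD, n = 3 each). These signals lay below the 95th percentile of the genes of other organs, so that a direction for Smad7 cannot be read above background.

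Over the 9 genes, the ratio of the group means lay between 0.973 and 1.07. By mean difference 5 were above 0, 3 below 0 and 1 at 0, where 47.2% of all probe sets were above 0 and 51.1% below. None of the 9 passed an adjusted p of 0.05 in limma (adjusted p from 0.994 to 1), and 0 of 27342 probe sets did (0%). Before adjustment, p was under 0.05 in limma for 0 of the 9 genes and for 915 probe sets (3.35%; 1.45% higher and 1.89% lower with CTGF). In the methods' 2-way test it was so for 1 of the 9, Tgfb3, and for 1147 probe sets (4.2%; 1.91% higher and 2.29% lower), with 0 left after adjustment. A change over 1.2-fold was found for 0 of the 9 and for 1.17% of probe sets (0.479% higher and 0.691% lower). The study's own criteria, a ratio over 1.2 or under 0.83 with a difference of signals over 10 and an unadjusted p under 0.05, were met by 0 of the 9 and, with limma's p, by 119 probe sets (0.435%; 0.19% higher and 0.245% lower). The median size of the difference was 0.03 for the 9 genes and 0.05 both for all probe sets and for those above background. A missed threshold does not show equal levels, and the intervals give what these arrays leave possible. For 8 of the 9 genes limma's 95% interval lay within 1.2-fold in either direction, and for Smad7 it reached 1.29-fold. The share of all probe sets with intervals inside that bound was not counted. Limma's standard error was 0.063 to 0.109 for the 9 genes, with a median of 0.074 over all probe sets. An exact sign-flip test over 3 pairs cannot give a two-sided p below 0.25. The intervals above rest on limma's moderated spread. That spread joins a gene's own 2 residual degrees of freedom with 4.22 from the whole array. The 2-way test, from a gene's own spread alone, gave a standard error of 0.017 for Tgfb3 and 0.157 for Smad7. In limma these were 0.063 and 0.109. Intervals from a gene's own spread alone are not given, and the 1.2-fold bound need not hold for them.

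**Figure D2:**
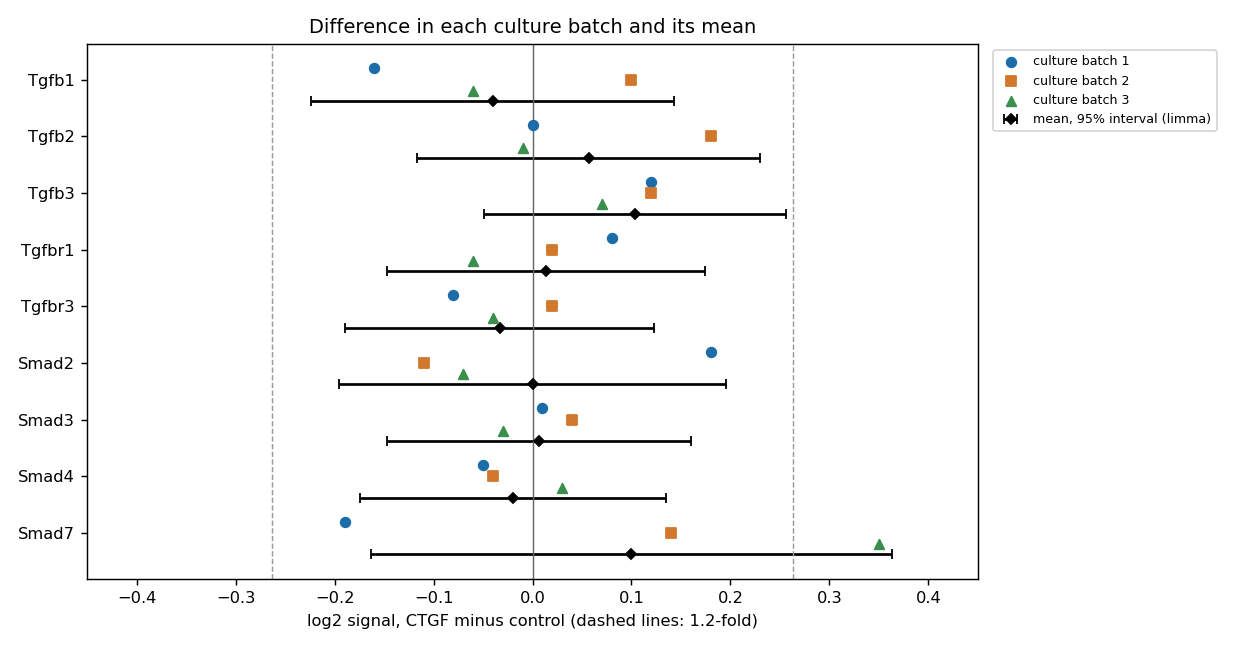
Log2 difference, CTGF minus control (horizontal axis), for each gene (vertical axis) by culture batch (circles for 1, squares for 2, triangles for 3), with the mean and its 95% interval in limma (diamond and bar). The 3 points lie on one side of 0 only for Tgfb3, and only the interval of Smad7 crosses a dashed line of 1.2-fold.

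The differences of Tgfb1, -0.16, 0.10 and -0.06 in the 3 batches, were most like those of Pmvk, a kinase of the mevalonate pathway, with a Euclidean distance of 0.017, and of Kank4, with 0.022. For Tgfb2 the nearest were Rhoq, a small GTPase, at a distance of 0.01 and Ddi2, a protease, at 0.014. For Tgfb3 they were Hax1 and Cxxc1, a CpG-binding protein, both at 0.022, with differences of 0.10, 0.12 and 0.06 for Hax1 and of 0.14, 0.12 and 0.08 for Cxxc1. Likeness was measured over 3 differences in 8782 named probe sets above background, of which 29, 45 and 37 lay within a distance of 0.05 of Tgfb1, Tgfb2 and Tgfb3. With so many near neighbours these names describe the 3 values and no more.

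The other genes of the pathway were taken from 4 lists, of which 64 of 79 genes had a named probe set. Of the 64, 29 were above 0 by mean difference and 32 below, and 4 were higher and 4 lower with CTGF in all 3 batches. Both counts of 64 are smaller shares than the 9.41% higher and 10.9% lower among all probe sets. Their median difference was -0.01, and that of all probe sets was -0.003. Limma gave an unadjusted p under 0.05 for 1 of them, Klf10, where 3.35% of all probe sets had one, and called 0 after adjustment.

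Genes that store and activate latent TGFβ had a median difference of 0 over 14 measured genes, 6 of them above and 6 below 0. Itgb8, an integrin subunit that activates latent ligand, had differences of 0.14, 0.70 and -0.06 in the 3 batches, with a mean of 0.26 (standard error 0.143). Its signal was 135.2 ± 18.9 in CTGF ovaries and 112.9 ± 14.9 in control ovaries (SD, n = 3 each), and the size of the mean came from batch 2. Emilin1, a matrix glycoprotein that limits the processing of the TGFβ-1 precursor, had a mean difference of -0.14 (standard error 0.077). Furin, the protease that cleaves the ligand precursors, had 0.07, 0.11 and 0.11 in the 3 batches (mean 0.10, standard error 0.063). Furin was the 1 gene of this list that was higher in every batch, and 2 were lower in every batch, the matrix fibrillin Fbn1 with -0.05, -0.03 and -0.19 and the integrin subunit Itgb6, below the background level, with -0.07, -0.03 and -0.14. Over all probe sets 9.41% were higher and 10.9% lower in every batch, and limma called none of these genes. Without each replicate in turn the median of the list ranged from -0.0375 to 0.0475.

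The 9 measured co-receptors and receptor regulators lay between -0.08 and 0.05, with a median of -0.02 that became 0.015 without replicate 3. Fmod, a proteoglycan that binds TGFβ, had a mean difference of -0.08 (standard error 0.076), Tgfbrap1, a receptor-associated protein, -0.05 (standard error 0.063) and Fkbp1a, which binds the type I receptor, 0.05 (standard error 0.067). Among 18 measured Smad partners and regulators the median was 0.01, or -0.0025 without replicate 3. Usp15, a deubiquitinase that acts on the receptor complex and Smads, had 0.10 (standard error 0.087), the ubiquitin ligase Smurf1 -0.09 (standard error 0.079) and Smad5, a Smad of the BMP branch, -0.07 (standard error 0.064). Tgfbrap1 and Smad5 were the only genes of these 2 lists with 1 sign in all batches, both lower with CTGF. Over all probe sets 9.41% were higher and 10.9% lower in every batch, and limma called 0 genes of these 2 lists after adjustment.

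The 23 measured genes known as targets of TGFβ had a median difference of -0.03. Klf10, an early response gene of TGFβ, had a log2 difference of 0.24, 0.20 and 0.13 in the 3 batches and signals of 179.4 ± 3.12 in CTGF ovaries and 157.3 ± 3.34 in control ovaries (SD, n = 3 each). All 3 CTGF values of Klf10 lay above the control values, and the mean of 0.19 (standard error 0.065) was not called in limma (adjusted p = 0.994). Timp1, an inhibitor of matrix proteases, had 0.09, 0.35 and 0.02 in the 3 batches, so its groups did not overlap either (adjusted p = 0.994, limma). With Junb, a transcription factor gene below the background level, 3 of the 23 targets were higher in every batch and 0 were lower, where 9.41% and 10.9% of all probe sets were. Pdgfb, a platelet-derived growth factor chain, had 0.17, 0.48 and 0, at signals below the background level. Ccn2, the gene of CTGF itself, had signals below that level too, with -0.20, 0.04 and -0.02.

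**Figure D3:**
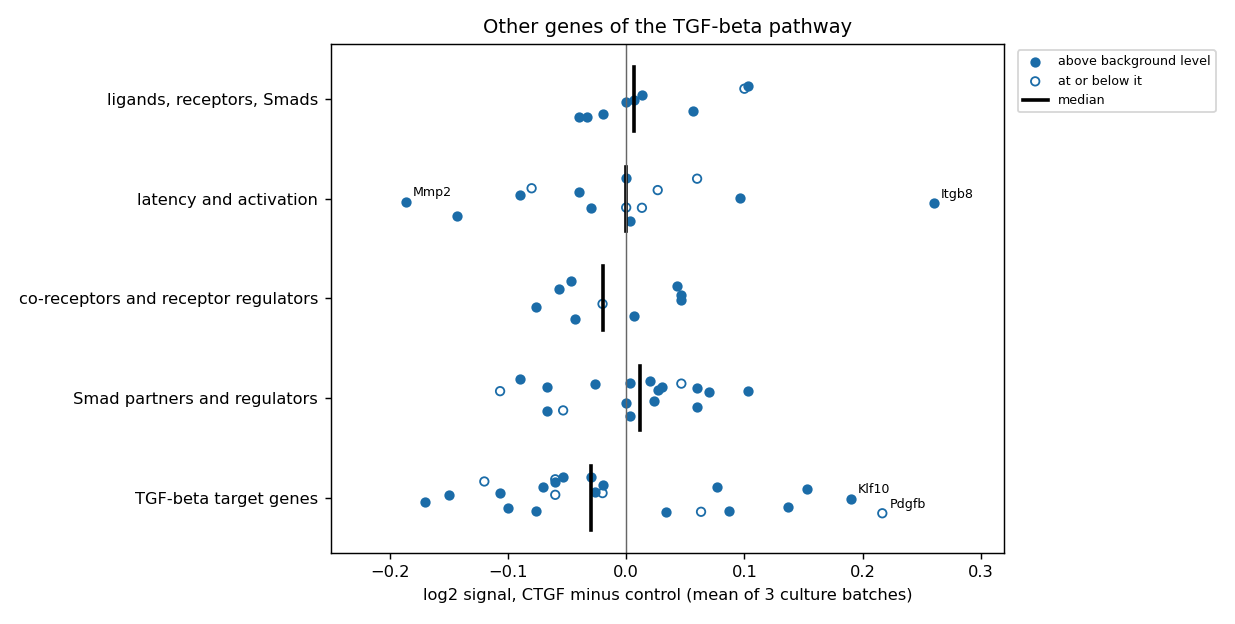
Mean log2 difference, CTGF minus control (horizontal axis), of each measured gene in the 9 genes and in 4 lists of other pathway genes (vertical axis), with filled points above the background level, open points at or below it, and the median as a bar. The medians lie between -0.03 and 0.01, and genes at 0.18 or more from 0 carry their names.

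Values of culture batch 3 stood apart from those of the other 2 in the target genes and in the stroma markers. In batch 3, 14 of the 23 targets were lower with CTGF. The median of the 23 was -0.17 there, while it was 0.08 in batch 1 and 0.08 in batch 2. The median of all probe sets in batch 3 was 0. Among the lower ones were fibronectin Fn1 at -0.57 and the collagen genes Col1a1 at -0.56 and Col1a2 at -0.50, and the cell cycle inhibitor Cdkn1a at -0.44, all named after their values were seen. Other targets were higher in batch 3, among them Ccn1 at 0.29, Cdkn2b at 0.23 and Klf10 at 0.13, also named after their values were seen. Fn1 had 0.27 and -0.21 in batches 1 and 2, Col1a1 0.10 and 0.40 and Col1a2 0.12 and 0.22. Without replicate 3 the median of the target list was 0.07.

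Each of the 7 stroma markers was lower with CTGF in batch 3, with a median of -0.43, and the medians in batches 1 and 2 were 0.15 and 0.03. Pdgfra, a receptor of mesenchymal cells, had -1.03 in batch 3 and the matrix proteoglycan Lum -1.08. The summed stroma signal ranged from 4463 to 5519 in CTGF arrays and from 5021 to 6246 in control arrays. These ranges leave out the pairing by batch and do not show a difference shared by the 3 batches. Oocyte markers had a median of 0.08 in batch 1, -0.005 in batch 2 and 0.21 in batch 3, with 3, 6 and 2 of 12 below 0. The medians of batches 1 and 3 were thus alike in direction, as was Sycp3 of the synaptonemal complex with 0.37, -0.38 and 0.48. Zp3, Gdf9 and Bmp15 instead had opposite signs in batches 1 and 3. Kit, with 0.12, 0.15 and 0.31, and Lhx8, with 0.04, 0.08 and 0.34, were higher in every batch. Of the 12, 0 were lower in every batch, where 9.41% of all probe sets were higher and 10.9% lower. The sum of the oocyte markers ranged from 7971 to 8865 in CTGF arrays and from 7629 to 8492 in control arrays, again without the pairing by batch. The 8 leukocyte markers had medians of 0.055, -0.065 and -0.245 in batches 1, 2 and 3, with 4, 7 and 6 of them below 0. Of these, C1qa, C1qb and Cpa3 were lower in every batch, the mast cell protease gene Cpa3 with -0.14, -0.80 and -1.52 (adjusted p = 0.994, limma). Over all probe sets 10.9% were lower in every batch, and limma called 0 of the 8 leukocyte markers after adjustment. The 4 endothelium markers had medians of -0.025, 0.01 and -0.165, and in batch 3 they divided into Emcn at -0.64 and Cdh5 at -0.36 against Tek at 0.08 and Tie1 at 0.03. Of these 4, Cdh5 and Tie1 lay below the background level, and Pecam1 and Kdr had no named probe set. Tie1 was the 1 that was higher in every batch, and 0 were lower. The 9 pregranulosa markers had medians of -0.10, 0.04 and -0.02, with Rspo1 and Irx3 lower in every batch and 0 higher. Of the targets, Col1a1 and Col3a1 are also stroma markers, as is Dcn among the co-receptors. Whether the cell types of the pools had a part in the batch 3 values of the targets was not tested.

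Of the 9 genes, the 8 above background had differences from -0.07 to 0.07 in batch 3, where the SD over all probe sets above background was 0.192. In batch 1 their differences ran from -0.16 to 0.18, with an SD over those probe sets of 0.155, and in batch 2 from -0.11 to 0.18, with an SD of 0.163. The median of the 9 genes was 0 in batch 1, 0.04 in batch 2 and -0.03 in batch 3. By direction, 4 of 9 were above 0 and 4 below in batch 1, 7 above and 2 below in batch 2, and 3 above and 6 below in batch 3. The median of all probe sets was 0, -0.01 and 0 in these batches. The share of all probe sets above or below 0 in a single batch was not counted, so these counts are a description only. The SD of a gene's 3 differences was below the median of all probe sets above background, 0.119, for 6 of the 9.

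**Figure D4:**
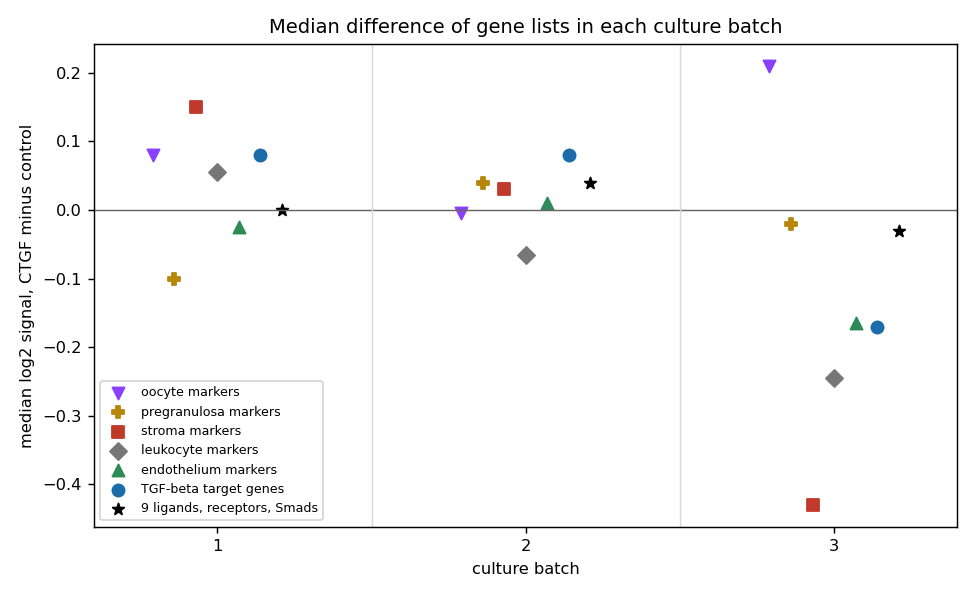
Median log2 difference, CTGF minus control (vertical axis), in culture batches 1, 2 and 3 (horizontal axis) for lists of cell type markers, for the TGFβ target genes and for the 9 ligands, receptors and Smads. In batch 3 the stroma markers lie at -0.43, the targets at -0.17 and the oocyte markers at 0.21, while the 9 genes lie at -0.03.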

How the data were processed

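Transcripts were measured on Rat Gene 1.0 ST arrays in 3 CTGF and 3 control ovary pools. Per the submitters' processing notes the authors used RMA and Partek to obtain 1 log2 value per probe set, and the methods add that GC content was adjusted for. These deposited values cover 27342 probe sets, with batch means already equal. The methods block for organ culture date. Arrays were paired by the replicate number in their titles, which was the same as the batch number in every sample. Names follow the platform annotation (1 symbol for 15097 probe sets, several for 323 and none for 11922), updated through Entrez numbers to RefSeq symbols of GRCr8 for 15067.

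CTGF minus control differences of all probe sets, unfiltered, were fitted with batch as a block (limma 3.58.1 under R 4.3.3, functions lmFit and eBayes), and p-values were adjusted by Benjamini and Hochberg's procedure across the whole array. The fit has 2 residual degrees of freedom. The number of arrays limits the precision. The members and lists were chosen with earlier results of these data known. Named are the 9 genes, 3 genes per pathway list with the smallest p, 2 nearest probe sets per ligand, and others where marked or as cell type markers. For a listed gene with several probe sets the one with the highest mean was used. The alternatives were the methods' 2-way test, leaving out a replicate, no batch term, quantile normalization, median centring, a signal filter, eBayes with trend or robust and no minimum difference. Array intensities and tissue sections were not used here.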

Additional observations from a re-analysis of the deposited data

How the results depend on the processing

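No alternative brought any of the 9 genes to an adjusted p under 0.05. Tgfb3 came closest without a batch block, at an adjusted p of 0.142 against 0.781 to 1 under its other settings. That fit, with no replicate block, counts more residual degrees of freedom than the deposited values keep, and it called 1 of the 9 genes at an unadjusted p under 0.05, as did the methods' 2-way test. The study's criteria, met by 119 probe sets, were met by 30 under the methods' 2-way test and by 217 with no minimum difference. Median centring gave 75 higher and 51 lower and quantile normalization 64 and 57, against 52 and 67. With 1 replicate left out that count ranged from 185 to 273. The difference of Tgfb3 then ranged from 0.095 to 0.12, of Tgfb1 from -0.11 to 0.02, of Tgfb2 from -0.005 to 0.09, of Tgfbr1 from -0.02 to 0.05, of Tgfbr3 from -0.06 to -0.01, of Smad2 from -0.09 to 0.055, of Smad3 from -0.01 to 0.025, of Smad4 from -0.045 to -0.005 and of Smad7 from -0.025 to 0.245. The cause was not tested. Settings with all replicates reversed 0 of the differences that were above or below 0, the signal filter leaving out Smad7. Smad2, with a difference of 0, had -0.015 under quantile normalization and 0.013 under median centring. The list medians without each replicate were added after seeing the data.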
